A study of Saccharomyces cerevisiae BY4741 with 66 samples.

Results

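The 46 genes described here encode the enzymes that yeast peroxisomes use to break down fatty acids, the glyoxylate, malate and carnitine enzymes that act beside them, peroxisomal membrane transporters, and the PEX and INP proteins that build, multiply and distribute the organelle. They were chosen as a fixed list of systematic gene names, and all 46 were found among the 6605 features that each deposited table lists. Saccharomyces cerevisiae cells of strain BY4741 were examined by selective ribosome profiling. Ribosome footprints of whole lysate gave the total libraries, and footprints of ribosomes pulled down on GFP antibody beads through a tagged subunit gave the immunoprecipitated (IP) libraries. Of 66 libraries, 50 had a table per gene, from 15 strains, with 25 totals and 25 IPs.

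Each strain carried a GFP tag on 1 subunit of a protein complex, and cultures grew at 30 °C with shaking at 150 rpm, per the labels. The fatty acid group held 4 totals. A pair came from a strain with a segment of FAS1 deleted (Δ4989-6153bp) and FAS1 tagged (FAS1dMPT-GFP), and a pair from a strain with tagged FAS1 and a segment of FAS2 deleted (Δ1-282bp; FAS1-GFP FAS2dMPT). FAS1 and FAS2 encode the subunits of fatty acid synthase, and the labels name the deleted parts as segments of the MPT domain. The labels say that fatty acids were put into the medium of these strains, without naming the fatty acid, its amount, or whether glucose was present. The YPD group held 17 totals of 10 strains with full-length genes in rich glucose medium, tagged on FAS1, FAS2, GUS1, MES1, ARC1, PFK1, PFK2, SUI2, SUI3 or GCD11. The dropout group held 4 totals, of which TRP2-GFP replicates 1 and 2 and TRP3-GFP grew in SD-trp and CPA1-GFP grew in SD-arg. No strain with full-length FAS1 and FAS2 had fatty acids in its medium, so medium and deletion cannot be told apart in any value below. The labels do not say that replicates were separate cultures, so a p-value here measures only the spread between libraries.

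In yeast, the beta-oxidation of fatty acids takes place in peroxisomes alone. An acyl-CoA enters or is made at the membrane, is shortened by an oxidase, a hydratase and dehydrogenase, and a thiolase, and leaves as acetyl units by way of citrate, glyoxylate or carnitine. Most matrix enzymes carry a signal at their C terminus that the receptor Pex5 reads, whereas the thiolase is brought in by Pex7 with a coreceptor. Glucose represses many of these genes, and in cells given oleate the factors Oaf1, Pip2 and Adr1 activate them.

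Values were deposited in RPM, that is, reads relative to the size of each library. The value of a single read in each table implied 9.05 to 27.7 M reads in the fatty acid totals, 1.74 to 55.9 M in the YPD totals and 3.45 to 16.3 M in the dropout totals, so that 1 read was worth 0.0179 to 0.575 RPM in the YPD totals. FAS2 was at 113 and 374 RPM in the FAS1-GFP FAS2dMPT totals and at 1704 to 4146 RPM in the YPD totals, although most of the gene lies outside the deleted part. BY4741 is a MATa strain, yet in 6 of the 25 totals the summed MATalpha-specific genes exceeded the MATa-specific ones: FAS1-GFP total 1, both FAS2-GFP totals, both TRP2-GFP totals and FAS1-GFP FAS2dMPT total 1. FAS1-GFP FAS2dMPT total 1 had 941 RPM of MATalpha-specific and 7.73 RPM of MATa-specific signal, against 4.79 and 558 RPM in total 2. In that strain the share of reads over listed features was 88.5% in total 2 and 94.3% in IP 2, whereas in the other 3 total and IP pairs of the fatty acid group the total had the higher share. Whether the labels of that total and IP are exchanged was not tested. Both FAS1-GFP IPs have the MATalpha pattern, while FAS1-GFP total 2 does not (3.63 RPM of MATalpha-specific and 896 RPM of MATa-specific signal, against 416 and 57.8 RPM in IP 2). The count of members that rose is given below with and without these libraries. Libraries were grouped by their labels. Given the opposite patterns, the totals of FAS1-GFP FAS2dMPT, and likewise those of FAS1-GFP, may not be replicates of the same strain.

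Without a filter on low genes, 8 of 10 beta-oxidation genes were called higher in the fatty acid totals than in YPD, as were CIT2 and CAT2 of 4 genes in the glyoxylate, malate and carnitine group, and of 16 import genes PEX18 was. With the filter (averaging 5 RPM or more across the fitted libraries), 31 of the 46 members were tested and 4 rose, CIT2, FAA2, ECI1 and TES1, and none fell. Of the tested members, ECI1, FAA2 and PEX28 averaged under 5 RPM in the scaled YPD totals and passed only through higher values in other libraries. The filter therefore did not select ECI1 and FAA2 independently of the difference from YPD, here and below. A call needed a Benjamini-Hochberg adjusted p under 0.05 in limma over all genes tested and a log2 difference of at least 1. Among all 4894 genes tested, 5.11% were called higher and 1.61% lower. An unadjusted limma p under 0.05 was common, with 2003 of the 4894 genes, and 2457 of 6577 features without the filter. The share of all genes passing the adjusted p alone was not counted. Passing it below the fold therefore does not set a member apart, here and below. The filter left out 15 members, many of them near 0 in YPD, and without it 11 of 46 were called higher and none lower, against 5.47% of all 6577 nuclear features called higher and 1.23% lower. The 7 members that joined were POX1, FOX2, POT1, SPS19, IDP3, CAT2 and PEX18. Over all 46 members the median log2 difference was 0.44 and 42 lay above 0, where the median of all nuclear features was 0.00. Equal library totals in place of trimmed-mean scaling turned the split over all genes from 250 higher and 79 lower to 444 and 41, and no further scaling turned it to 516 and 38, with median log2 differences over all genes of 0.29 and 0.34.

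The 4 calls with the filter numbered 4 again without both replicate 2 libraries of FAS1-GFP FAS2dMPT, 3 without the 6 totals of MATalpha pattern and 5 without the 3 totals that had the lowest share of reads over listed features, which were GCD11-GFP total 1, GUS1-GFP total 1 and PFK1-GFP total 1. Without the filter the counts were 11, 10 and 12. CIT2, FAA2, FOX2, PEX18, POT1, POX1 and SPS19 were called in all 35 settings run without the filter.

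**Figure D1:**
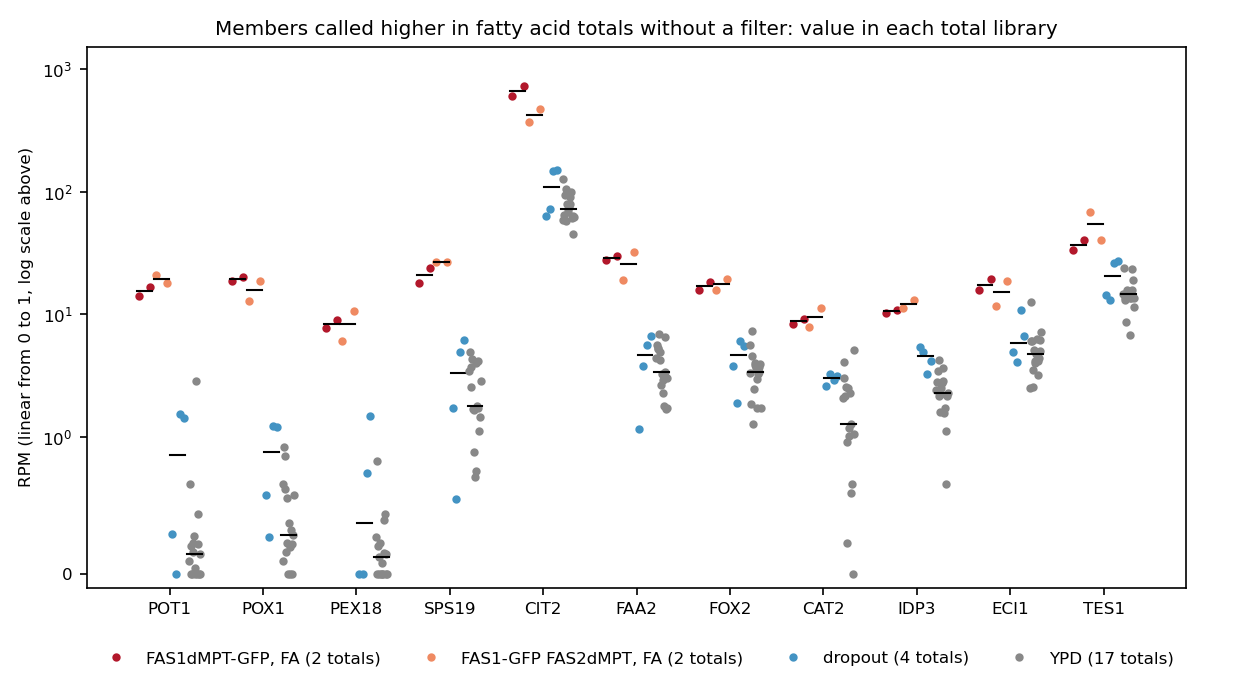
Footprint level in RPM of the 11 members called higher without the filter, on an axis that is linear from 0 to 1 and logarithmic above; each dot is 1 total library, coloured by group, and bars mark group medians. The 4 fatty acid libraries of POX1 lie at 12.9 to 20.2 RPM, where the highest of the 17 YPD libraries is at 0.931 RPM.

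POX1, the acyl-CoA oxidase that starts each round (YGL205W, chromosome VII 108158 to 110404, plus strand, assembly R64), had 18.5 and 20.2 RPM in the FAS1dMPT-GFP totals and 12.9 and 18.8 RPM in the FAS1-GFP FAS2dMPT totals. The YPD totals had 0 to 0.931 RPM with a median of 0.286, and 3 of the 17 list the gene at 0. Every fatty acid library was thus above every YPD library, by a log2 difference of 3.39 ± 0.145 (SE) on the log2(RPM + 1) scale (limma without the filter, adjusted p = 2.53e-13). In these bulk libraries, more cells expressing a gene and more expression per cell cannot be told apart.

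FOX2 encodes the enzyme that carries both the hydratase and the dehydrogenase step (YKR009C, chromosome XI 454352 to 457054, minus strand). It had 15.7 and 18.4 RPM in the FAS1dMPT-GFP totals, 15.7 and 19.6 RPM in the FAS1-GFP FAS2dMPT totals, and 1.29 to 7.33 RPM in YPD with a median of 3.39. The groups did not overlap, and FOX2 rose by 1.74 ± 0.227 (limma without the filter, adjusted p = 6.2e-06). POT1, the 3-ketoacyl-CoA thiolase of the last step (YIL160C, chromosome IX 40191 to 41444, minus strand), had 14.0, 16.8, 21.1 and 17.9 RPM in the same order. In YPD it reached 2.86 RPM in PFK1-GFP total 1, the median was 0.143, and 6 of 17 libraries list it at 0. POT1 thus rose from near absence, by 3.49 ± 0.251 (limma without the filter, adjusted p = 6.72e-10).

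The 3 core enzymes had 12.9 to 21.1 RPM in the fatty acid libraries, without correction for gene length. Their sum was 48.3, 55.5, 49.6 and 56.3 RPM in the 4 libraries. In the 17 YPD totals the sum was 1.61 to 8.195 RPM with a median of 4.04, and in the dropout totals 2.19 to 8.86 RPM.

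Of 3 auxiliary enzymes that handle unsaturated fatty acids, 2 rose. SPS19, the 2,4-dienoyl-CoA reductase, had 17.9, 23.9, 26.9 and 26.5 RPM against 0.713 to 4.95 RPM in YPD (median 1.79), and rose by 2.56 ± 0.311 (limma without the filter, adjusted p = 2.3e-06). ECI1, the enoyl-CoA isomerase (YLR284C, chromosome XII 706198 to 707040, minus strand), had 15.7, 19.2, 11.7 and 18.9 RPM against 2.54 to 12.6 RPM (median 4.76). In RPM the lowest fatty acid library of ECI1 lay below the highest YPD library, FAS1-GFP total 2; after scaling the groups did not overlap and ECI1 rose by 1.18 ± 0.218 (limma adjusted p = 0.000223). Its call was lost with a pseudocount of 5 (0.79) and with the FAS1-GFP totals as the only YPD reference (1.06, limma adjusted p = 0.111). DCI1, the dienoyl-CoA isomerase, was not called, with 0.866 to 1.89 RPM in the fatty acid totals, within the YPD range of 0.161 to 3.45 RPM.

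Enzymes at the entry and the side exits of the cycle also rose. FAA2, which activates medium-chain fatty acids to their CoA esters (YER015W, chromosome V 184541 to 186775, plus strand), had 27.5, 30.0, 18.9 and 32.3 RPM against 1.69 to 6.90 RPM in YPD (median 3.41). It rose by 2.20 ± 0.256 (limma adjusted p = 6.06e-07), and the groups did not overlap. TES1, an acyl-CoA thioesterase (YJR019C, chromosome X 467232 to 468281, minus strand), had 33.7, 39.96, 68.0 and 40.5 RPM against 6.86 to 23.7 RPM (median 14.5). FAS1-GFP FAS2dMPT total 1 stood highest for TES1, which rose by 1.18 ± 0.209 (limma adjusted p = 0.000145). Without that library the TES1 difference was 0.90 (limma adjusted p = 0.00701), under the fold needed for a call. The call was also lost with a pseudocount of 5 (0.99) with the FAS1-GFP totals as reference (0.95, limma adjusted p = 0.143), without the 6 totals of MATalpha pattern (0.87, limma adjusted p = 0.0142) and in tables that list start before end (0.94, limma adjusted p = 0.00483). SPS19, FAA2 and TES1 overlap another listed feature on the chromosome and could share reads with it.

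IDP3, the NADP-linked isocitrate dehydrogenase of the matrix, had 10.2 to 13.1 RPM against 0.660 to 4.24 RPM in YPD and rose by 1.56 ± 0.214 (limma without the filter, adjusted p = 1.09e-05). CTA1, the peroxisomal catalase that removes the hydrogen peroxide made by the oxidase, remained very low. It had 1.84, 1.90, 1.99 and 2.82 RPM, against 0 to 2.16 RPM in YPD with 4 libraries listed at 0. The fatty acid libraries of CTA1 lay above all YPD libraries except GUS1-GFP total 1, and the log2 difference of 0.92 ± 0.221 (limma without the filter, adjusted p = 0.00317) missed the fold for a call. Of the 10 beta-oxidation members, 8 were called higher without the filter, where 5.47% of all features were, and all 3 that passed the filter were called with it, where 5.11% were. Of those 3, ECI1 and FAA2 averaged under the filter in the YPD totals, so the filtered share is no separate support. The median log2 difference of the 10 was 1.65. The IDP3 call was lost with a pseudocount of 5 (0.89).

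The acetyl-CoA enzymes split. CIT2, the peroxisomal citrate synthase and a known target of mitochondria-to-nucleus retrograde signalling (YCR005C, chromosome III 120946 to 122328, minus strand), had 594 and 718 RPM in the FAS1dMPT-GFP totals and 368 and 469 RPM in the FAS1-GFP FAS2dMPT totals. The YPD totals had 44.8 to 126 RPM (median 72.5), so the groups were far apart, and CIT2 rose by 2.41 ± 0.163 (limma adjusted p = 1.04e-10). Its mitochondrial paralog CIT1 had 304 to 468 RPM against 85.2 to 408 RPM in YPD, a log2 difference of 1.25 ± 0.279 (limma adjusted p = 0.00133), and how reads shared by the pair were counted is not given in the sources used here. CAT2, the carnitine acetyltransferase, had 7.84 to 11.3 RPM against 0 to 5.18 RPM in YPD and rose by 1.64 ± 0.328 (limma without the filter, adjusted p = 0.000662). The CAT2 call was lost with a pseudocount of 5 (0.82) and with the FAS1-GFP totals as reference (1.10, limma without the filter, adjusted p = 0.297). MDH3, the peroxisomal malate dehydrogenase, had 139 to 150 RPM inside the YPD range of 77.1 to 172 RPM (-0.05 ± 0.106). MLS1, a malate synthase, had 1.22 to 1.86 RPM inside the YPD range of 0 to 3.06 RPM.

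**Figure D2:**
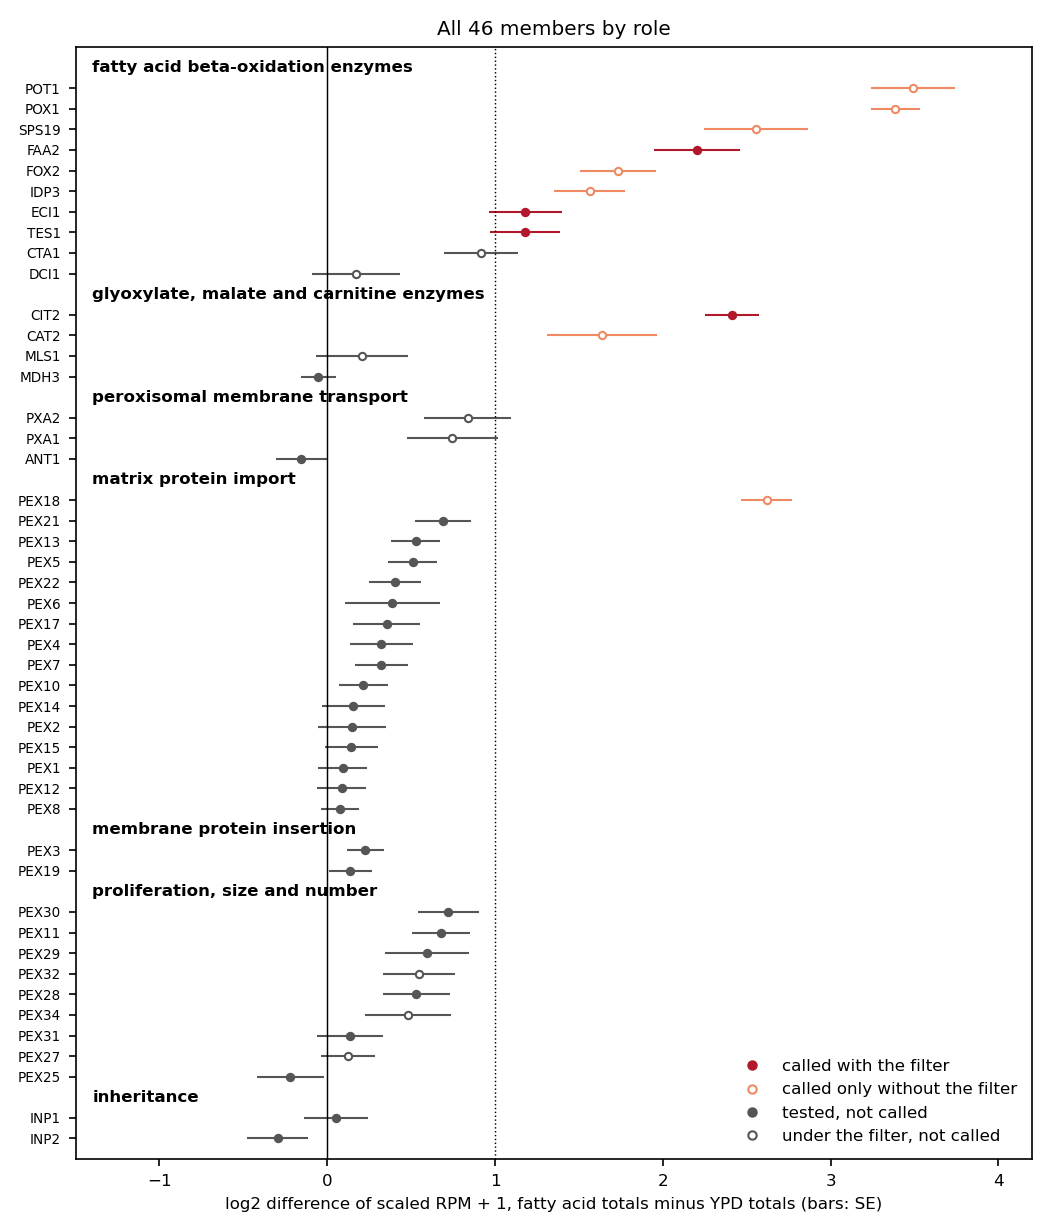
Log2 difference ± SE of all 46 members, fatty acid totals minus YPD totals, ordered by role; filled points passed the filter on low genes and open points did not, red marks a call and orange a call without the filter alone. The beta-oxidation genes spread from 0.17 for DCI1 to 3.49 for POT1, whereas the import genes other than PEX18 stay at 0.69 or less.

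None of the 3 transport members was called. PXA1 and PXA2 encode the 2 subunits of the ABC transporter that takes long-chain acyl-CoA into the matrix. PXA1 had 5.19, 5.85, 4.75 and 7.39 RPM against 0.397 to 5.18 RPM in YPD (median 2.36), a log2 difference of 0.75 ± 0.270 (limma without the filter, adjusted p = 0.0423). PXA2 had 3.21, 3.42, 3.42 and 6.15 RPM against 0.440 to 5.61 RPM (median 1.13), a difference of 0.84 ± 0.259 (limma without the filter, adjusted p = 0.0181). Both genes passed the adjusted p and missed the fold, and their groups overlapped after scaling. ANT1, the carrier that brings ATP into the peroxisome, had 31.0 to 40.2 RPM, close to the YPD range of 15.8 to 39.2 RPM.

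Of the 16 import members 0 of 15 tested were called with the filter and 1 of 16 without it, near the 5.11% and 5.47% of all features called higher. The 1 called was among the 3 with the lowest YPD levels of all 46 per kilobase. PEX18 encodes a coreceptor of Pex7 in the route that imports the thiolase (YHR160C, chromosome VIII 419221 to 420072, minus strand). It had 7.69 and 9.08 RPM in the FAS1dMPT-GFP totals and 6.08 and 10.7 RPM in the FAS1-GFP FAS2dMPT totals. In YPD it had 0 to 0.825 RPM with a median of 0.121, and 7 of 17 libraries list it at 0. The groups were apart, and PEX18 rose by 2.62 ± 0.153 (limma without the filter, adjusted p = 2.75e-11). PEX21, the paralog that serves the same receptor, had 16.6, 17.2, 9.82 and 10.7 RPM against 3.34 to 9.68 RPM, a log2 difference of 0.69 ± 0.166 (limma adjusted p = 0.00255) that missed the fold.

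The receptors themselves were not called. PEX5 had 63.99, 68.3, 54.7 and 63.1 RPM against 20.02 to 59.0 RPM in YPD (median 33.0), a log2 difference of 0.51 ± 0.146 (limma adjusted p = 0.00905). PEX7 had 14.2, 16.7, 11.7 and 15.7 RPM against 5.50 to 13.9 RPM (median 8.74), a difference of 0.32 ± 0.160 (limma adjusted p = 0.130). Groups overlapped for both receptors. The docking protein gene PEX13 and PEX22, which encodes the anchor of the ubiquitin-conjugating enzyme Pex4, passed the adjusted p below the fold (0.53 and 0.40). The other 10 import members, which encode docking proteins, RING ligases, the lumenal protein Pex8, Pex4, and the AAA ATPases with their anchor, had differences from 0.08 for PEX8 to 0.39 for PEX6 and adjusted p above 0.05.

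PEX3 and PEX19, which insert membrane proteins, were not called. PEX19 had 68.2, 65.8, 34.5 and 61.4 RPM against 26.3 to 64.04 RPM in YPD (0.14 ± 0.130, limma adjusted p = 0.460), with both FAS1-GFP FAS2dMPT totals inside the YPD range. Among the 9 proliferation genes none was called. PEX11, PEX30 and PEX28 passed the adjusted p, where 2003 of all 4894 genes tested had an unadjusted limma p under 0.05. PEX11, which promotes division of peroxisomes and is induced by oleate in yeast (YOL147C, chromosome XV 47933 to 48643, minus strand), had 59.7, 68.7, 52.4 and 56.3 RPM against 16.0 to 43.0 RPM (median 27.9). All 4 fatty acid libraries of PEX11 stood above YPD in RPM, yet the scaled groups overlapped and the log2 difference of 0.68 ± 0.172 (limma adjusted p = 0.00375) missed the fold. The PEX11 call depended on the scaling: it was called with no further scaling (1.06) and with equal totals (1.01). PEX30, a regulator of peroxisome size and number, had 30.0 to 49.4 RPM against 10.9 to 27.3 RPM and 0.72 ± 0.181 (limma adjusted p = 0.00353), with no overlap.

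For the inheritance pair, INP1, which holds peroxisomes in the mother cell, had 6.09 to 11.2 RPM against 3.43 to 11.7 RPM in YPD. INP2, the receptor that links them to the motor Myo2, had 7.62 to 12.9 RPM against 5.65 to 16.0 RPM. Their log2 differences were 0.05 ± 0.190 and -0.30 ± 0.180, and neither sign held in all settings, since INP1 was at -0.22 with the FAS1-GFP totals as reference and INP2 at 0.05 with no further scaling. Over all members, 12 of 46 had every fatty acid total above every YPD total after scaling, the 11 called without the filter and PEX30, against 4.94% of nuclear features, and no member had all below, against 4.38%.

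Levels per length set the size of these changes in context. In mean RPM per kb of gene length before scaling, in the YPD totals, MDH3 was the highest member at 112, CIT2 was next at 55.2 and PEX11 stood at 40.2, while POX1 at 0.159, PEX18 at 0.197 and POT1 at 0.250 were the 3 lowest. In the fatty acid totals CIT2 led at 388 RPM per kb, ahead of MDH3 at 140 and PEX11 at 83.4. TES1 followed at 43.3 and SPS19 at 27.1, whereas POT1 had 13.9, POX1 7.84 and FOX2 6.42. The enzymes of the core cycle thus stayed below PEX19 (55.8), PEX25 (39.4) and PEX5 (34.0) in level even where they had changed most. POX1 ranked 46 of 46 in YPD and 34 with fatty acids, and CIT2 went from rank 2 to rank 1.

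**Figure D3:**
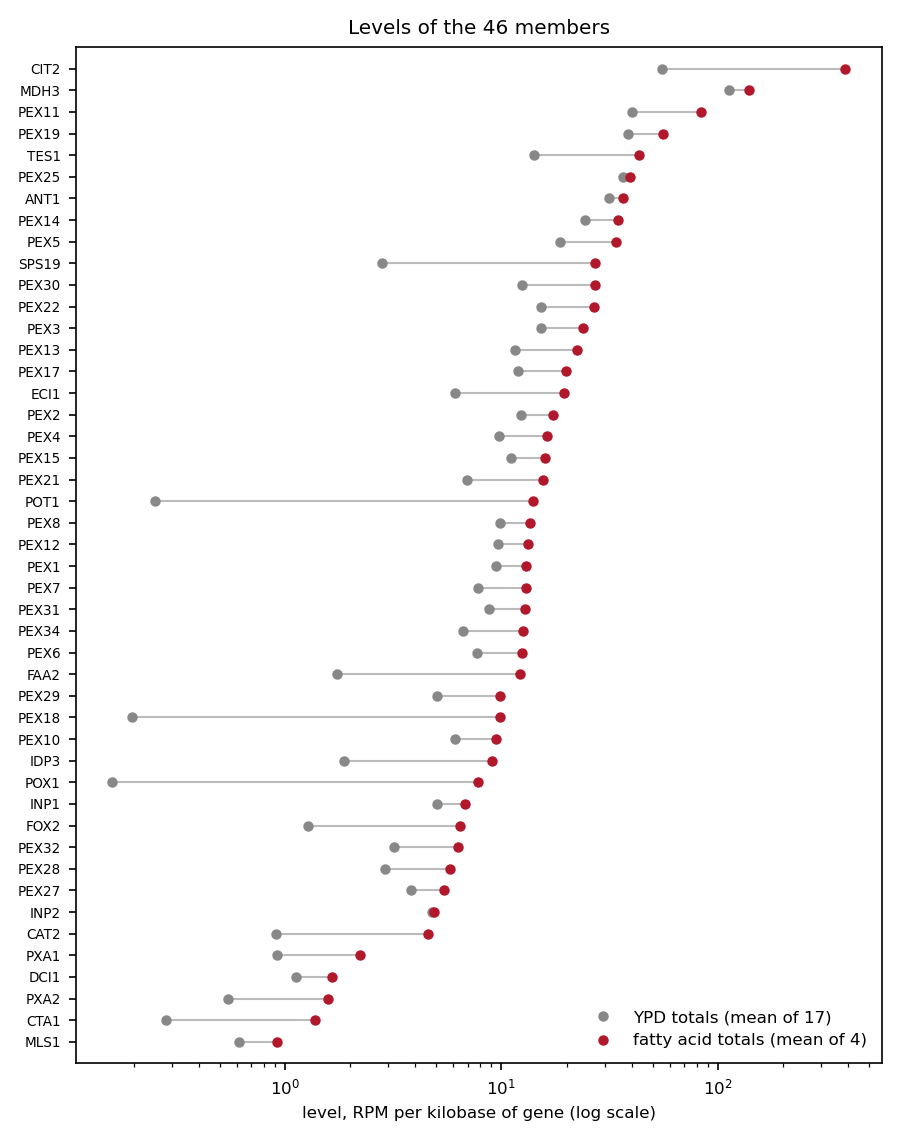
Mean RPM per kb of each of the 46 members on a logarithmic axis, in the 17 YPD totals (grey) and the 4 fatty acid totals (red), joined by a line and ordered by the fatty acid level. POT1, PEX18 and POX1 have the longest lines, from 0.250, 0.197 and 0.159 to 13.9, 9.85 and 7.84 RPM per kb.

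Each deletion strain was also set against the same 17 YPD totals, so these comparisons share their reference and are not independent. In FAS1dMPT-GFP 3 members rose with the filter (CIT2, FAA2, ECI1; 4.27% of all genes tested) and 10 without it (3.94%). In FAS1-GFP FAS2dMPT 4 rose with the filter (CIT2, FAA2, ECI1 and TES1; 5.27%) and 13 without it (5.88%). No member fell in either, where 1.27% and 2.17% of all genes did with the filter and 0.927% and 1.63% without it. POX1 differed by 3.45 and 3.32, FOX2 by 1.63 and 1.84, POT1 by 3.25 and 3.73, and CIT2 by 2.65 and 2.17 in FAS1dMPT-GFP and FAS1-GFP FAS2dMPT. FAA2 differed by 2.22 and 2.19, PEX18 by 2.56 and 2.68, ECI1 by 1.20 and 1.16, and PEX11, not called in either, by 0.71 and 0.65. In FAS1dMPT-GFP, PEX11 was called with no further scaling (1.18) and with equal totals (1.04). CTA1 was called in FAS1-GFP FAS2dMPT (1.07 ± 0.297, limma without the filter, adjusted p = 0.0118) and stood at 0.76 without a call in FAS1dMPT-GFP. PXA2 was called in FAS1-GFP FAS2dMPT as well (1.08 ± 0.349, limma without the filter, adjusted p = 0.0298), and both genes were highest in its total 2. Without the replicate 2 pair of that strain neither was called, with CTA1 at 1.04 (limma without the filter, adjusted p = 0.130) and PXA2 at 0.91 (limma without the filter, adjusted p = 0.294). ECI1 lost its call in each strain when either total of that strain was left out, with limma adjusted p of 0.104 and 0.216 in FAS1dMPT-GFP and 0.0686 and 0.124 in FAS1-GFP FAS2dMPT. TES1 lost its call in FAS1-GFP FAS2dMPT without total 1 (0.95, limma adjusted p = 0.123).

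The difference between the deletion strains was tested in the same limma fit. No member was called, and over all genes 0.0% were higher and 0.0409% lower in FAS1-GFP FAS2dMPT (0.0304% without the filter), with 252 of 4894 at an unadjusted p under 0.05. The members ranged from -0.69 to 0.67 on the log2 scale. POX1 differed by -0.13 ± 0.261, FOX2 by 0.21 ± 0.408, POT1 by 0.48 ± 0.451, CTA1 by 0.31 ± 0.397 and PEX11 by -0.06 ± 0.309. With a pair of libraries per strain, a difference of 1 for FOX2 or POT1 lies within 2 SE of these values, so equal response of the strains is not shown. The FAS1-GFP FAS2dMPT totals also have opposite mating-type patterns, so values given for that strain may mix different strains.

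**Figure D4:**
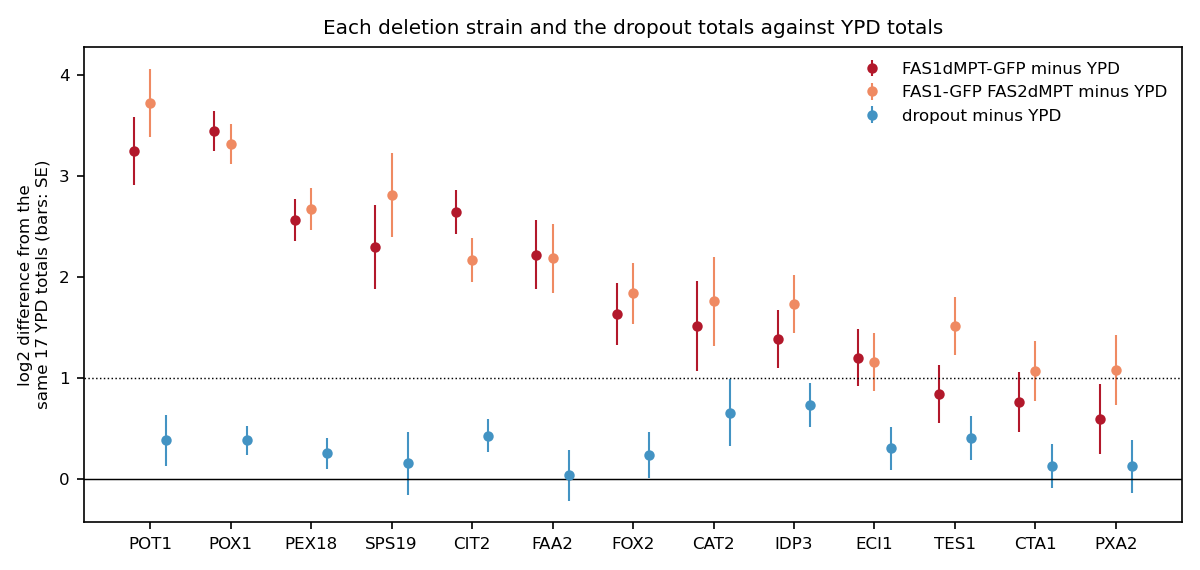
Log2 difference ± SE from the same 17 YPD totals for 13 members in FAS1dMPT-GFP totals, FAS1-GFP FAS2dMPT totals and dropout totals. For POX1 the strains stand at 3.45 and 3.32 and the dropout totals at 0.38.

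The dropout totals gave a second reference medium without added fatty acids. The TRP2-GFP totals had 0.581 and 0.274 RPM of POX1, TRP3-GFP had 1.23 and CPA1-GFP 1.21, so all 4 stood well below the fatty acid totals. POT1 was at 0.290, 0, 1.54 and 1.45 RPM in the same order, and CIT2 at 63.4, 71.6, 148 and 149 RPM. For each of these genes TRP3-GFP and CPA1-GFP were the higher libraries. Against the dropout totals, CIT2 (1.98 ± 0.207) and FAA2 (2.17 ± 0.326) rose with the filter, where 2.6% of all genes did. Without the filter 7 rose, where 2.77% of all features did: POX1 (3.00 ± 0.184), FOX2 (1.501 ± 0.288), POT1 (3.11 ± 0.319), SPS19 (2.40 ± 0.395), PEX18 (2.37 ± 0.194), CIT2 and FAA2, with limma adjusted p from 2.51e-10 to 0.00165. No member fell, against 1.35% of genes with the filter and 0.943% without it. After scaling, 19 of 46 members had every fatty acid total above every dropout total, against 10% of nuclear features, and 2 had every one below, against 11.2%. CTA1 differed by 0.79 and PEX11 by 0.37, and neither was called (limma adjusted p = 0.0729 without the filter and 0.288 with it).

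Dropout and YPD totals were also compared. No gene at all was called (0.0% higher and 0.0% lower), with 413 of 4894 at an unadjusted p under 0.05, and members lay between -0.25 for PEX6 and 0.73 for IDP3. POX1 differed by 0.38 ± 0.145 (limma without the filter, adjusted p = 0.474), FOX2 by 0.23 ± 0.227, POT1 by 0.38 ± 0.251, CTA1 by 0.13 ± 0.221 and PEX11 by 0.31 ± 0.172.

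The IP libraries were compared in the same way. They came from the same strains and media as the totals, so calls in IPs are not independent of those in totals. Of the 25 IPs 7 had the MATalpha pattern: both of FAS1-GFP, FAS2-GFP and TRP2-GFP, and FAS1-GFP FAS2dMPT IP 1. In the fatty acid IPs POX1 had 18.3, 21.8, 18.2 and 19.0 RPM, against 0 to 11.4 RPM in the 17 YPD IPs (median 0.638, highest MES1-GFP IP 2). POT1 had 14.5, 20.4, 16.97 and 17.8 RPM against 0 to 2.06 RPM. CIT2 had 582, 385, 160 and 598 RPM against 28.1 to 78.2 RPM, with FAS1-GFP FAS2dMPT IP 1 the lowest of the 4 and still above every YPD IP. Of the 34 members tested 6 rose (CIT2, FAA2, ECI1, TES1, FOX2 and PEX11), where 6.18% of 5013 genes did, and none fell, where 2.03% did. Without the filter 11 rose (5.88%) and none fell (1.4%), with POX1, POT1, PEX18, SPS19 and IDP3 joining. Without the IPs of MATalpha pattern 6 rose with the filter and 10 without it. After scaling, 9 of 46 had every fatty acid IP above every YPD IP, against 4.09% of nuclear features, and none had every one below, against 1.72%. The log2 differences were 2.38 ± 0.199 for CIT2, 2.26 ± 0.327 for FAA2, 1.79 ± 0.349 for ECI1, 1.38 ± 0.230 for TES1 and 1.35 ± 0.305 for FOX2, with limma adjusted p from 9.01e-10 to 0.00185. Without the filter they were 2.95 ± 0.446 for POX1, 3.49 ± 0.290 for POT1 and 2.67 ± 0.156 for PEX18.

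PEX11 had 56.7, 34.7, 31.6 and 58.2 RPM in the fatty acid IPs and 6.14 to 24.3 RPM in the YPD IPs, and rose by 1.10 ± 0.272 (limma adjusted p = 0.00418). The scaled groups overlapped, and the PEX11 call was lost in 7 alternatives, for example at 0.97 without FAS1-GFP FAS2dMPT IP 2 at 0.95 without FAS1dMPT-GFP IP 1 and at 0.68 in tables that list start before end. FOX2 fell under the fold in the IPs with a pseudocount of 5 (0.96). CTA1 had 1.73, 2.83, 0 and 1.98 RPM in the fatty acid IPs, inside the YPD range of 0 to 5.25 RPM (-0.18 ± 0.417).

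Whether the members' footprints were taken along in IPs was tested over the 8 strains with full-length subunits and 2 replicates of both fractions. PEX6, an AAA ATPase that recycles the import receptor, was the 1 member called of 34 tested (1.10 ± 0.218, limma adjusted p = 0.000177), where 4.22% of 4979 genes were higher in IPs and 0.763% lower. Without the filter PXA1 (1.04 ± 0.188, limma adjusted p = 0.000183) was called as well, where 4.3% of features were higher and 0.578% lower. PEX6 lost its call without PFK1-GFP IP 1 (1.00), with a pseudocount of 5 (0.97) and with no further scaling (0.82). It was at 27.02 to 73.2 RPM in the IPs of replicated strains with full-length subunits, and at 47.9, 48.7 and 54.8 RPM in FAS2-GFP, PFK1-GFP and GUS1-GFP total 1, which overlapped those IPs. POX1 (0.91 ± 0.192), FOX2 (0.77 ± 0.177) and CTA1 (0.91 ± 0.193) lay higher in IPs below the fold, POT1 stood at 0.13 ± 0.155, and PEX11 lay lower at -0.73 ± 0.122 (limma adjusted p = 3.88e-05). Over all genes, 3291 of 4979 had an unadjusted limma p under 0.05 in this comparison. Of the 46 members, 30 had a limma adjusted p under 0.05 without the filter, 20 of them higher in IPs. Differences below the fold were thus common and not particular to these members. Without the replicate 2 pair of FAS1-GFP, whose total and IP differ in mating-type genes, PEX6 was still the 1 member called with the filter (1.10).

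Genes of other lists, not all of them in fatty acid breakdown, were counted in fatty acid against YPD totals. Of all genes, 5.11% were called higher there with the filter and 5.47% without it. Of 12 further peroxisomal proteins, 10 were tested and STR3 (2.10), PNC1 (1.83) and GPD1 (1.69) rose, with GPX1 (1.93) and LPX1 (1.47) added without the filter. STR3 had 44.6 to 59.9 RPM with fatty acids and up to 54.6 RPM in YPD, and PNC1 had 401 to 631 RPM and up to 356 RPM, with FAS1-GFP total 2 the highest YPD library of both. Of 7 regulators 6 were tested and ADR1 rose, at 152 to 233 RPM against 10.7 to 77.7 RPM in YPD (2.49 ± 0.426, limma adjusted p = 9.61e-05), with CAT8 (1.02) added without the filter. PIP2 was at 22.3 to 35.6 RPM against 7.15 to 23.3 RPM (0.88 ± 0.194, limma adjusted p = 0.00119), under the fold, and OAF1 was at -0.05. Of 4 carnitine genes 3 were tested, YAT2 (2.13) and AGP2 (1.04) rose, and CRC1 (1.39) was added without the filter.

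Of 8 genes of glyoxylate use, gluconeogenesis and acetate, 2 were tested and MDH2 (1.29) rose, and ACS1 (1.16) was added without the filter. ICL1 and PCK1 stood at 0.66 and 0.55 without a call. ADH2, the other gene tested, was at -0.28, and FBP1 (-0.37), JEN1 (-0.12) and SFC1 (0.09) were not called either. Among 8 genes of fission, inheritance and pexophagy none rose of the 7 tested, and ATG36 (1.31), the receptor for autophagy of peroxisomes, was added without the filter. Of 9 genes of fatty acid uptake, activation and synthesis OLE1, the desaturase, rose (1.57) and FAS2 fell by 2.53 on the log2 scale over both strains. FAS2 was at 113 and 374 RPM in the FAS1-GFP FAS2dMPT totals and at 1516 and 1809 RPM in the FAS1dMPT-GFP totals, against a YPD median of 2505 RPM. None of 11 respiratory chain genes was called (-0.44 to 0.63, median 0.15), and of 10 ribosomal protein genes RPS2 fell by 1.02 while all 10 lay between -1.02 and -0.63. None of the 6 MATa-specific and 3 MATalpha-specific genes was called. Each group mixes libraries of both patterns, and the SE ran from 0.97 for AGA2 to 2.17 for MF(ALPHA)1. The lack of a call therefore does not show that mating type was balanced between the groups.

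Genes of the general stress response moved with the same libraries. Of 12 such genes 11 rose, led by HSP12 (7.24), DDR2 (4.93), CTT1 (4.88) and ALD3 (4.31). Their sum was 4391 to 7726 RPM in the fatty acid totals, 417 to 2678 RPM in YPD (median 704) and 420 to 3625 RPM in the dropout totals. The libraries with the next highest sums were CPA1-GFP at 3625 RPM, TRP3-GFP at 3132 RPM and FAS1-GFP total 2 at 2678 RPM. Their sums of POX1, FOX2 and POT1 were 8.15, 8.86 and 6.93 RPM, against 48.3 RPM in the lowest fatty acid library. No total outside the fatty acid group reached a stress sum of 4391 RPM, so the groups cannot be compared at equal stress sums. The part of the stress genes' difference in the members' difference was not tested.

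**Figure D5:**
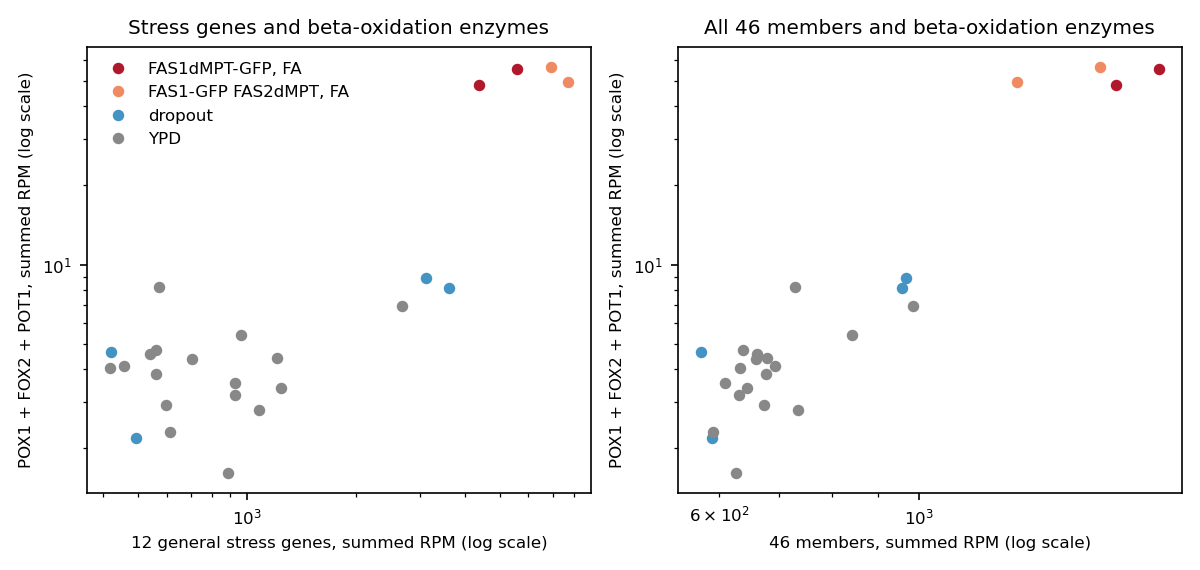
Summed RPM of POX1, FOX2 and POT1 (vertical axes) against the summed RPM of 12 general stress genes (left) and of all 46 members (right), 1 point per total library, coloured by group, all axes logarithmic. The 4 fatty acid totals sit at 48.3 to 56.3 RPM on the vertical axes, and CPA1-GFP and TRP3-GFP, next in stress sum, at 8.15 and 8.86 RPM.

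Summed over all 46 members, the fatty acid totals had 1286 to 1849 RPM, the YPD totals 591 to 985 RPM (median 661) and the dropout totals 572 to 968 RPM. The fatty acid totals were above every other total, and CIT2 alone gave 368 to 718 RPM of their sum.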

How the data were processed

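The tables hold RPM, which the authors deposited without a header. The unit was read from the values, in which a low entry that recurs often was taken as a single read. Not all low entries were multiples of it: in GUS1-GFP total 2 that step was 0.161 RPM and PEX18 was at 0.121 RPM. The implied numbers of reads are therefore estimates. The submitters' processing notes name cutadapt 1.8.3. How reads were aligned and counted, on which strand and against which build, is not stated in the sources used here. Between 13.3% and 75.6% of the values of a library were whole reads within 0.01 read, so reads were not recovered and limma took the place of the count test that was planned for counts. RPM were scaled by an unweighted trimmed mean of log ratios (trims 0.3 and 0.05), set to log2(RPM + 1) and fitted by limma-trend (limma 3.58.1, R 4.3.3): all 25 totals as 4 groups, all 25 IPs likewise, and 40 libraries with a mean per strain and fraction. The 28 mitochondrial features were left out. Gene names and R64 coordinates come from RefSeq, where 5919 of 6605 features matched. Figures were drawn with matplotlib 3.10.9. The steps were tested on simulated libraries, with changes only in genes averaging 5 RPM or more, so calls without the filter were not covered. Recovery was scored by adjusted p and direction, without the fold. At least 98% of 4-fold changes were recovered in each comparison. Of 2-fold changes, 36.4% were recovered between the deletion strains, 68% for FAS1dMPT-GFP and 98.0% for fatty acid against YPD totals. The simulated libraries had a fixed spread around a shared mean per gene, without differences between strains or mating-type patterns. These shares may therefore be too high for the real libraries.

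The members and gene lists were chosen with earlier results of these data known. Members called, and POX1, FOX2, POT1, CTA1, FAA2, PXA1, PXA2, PEX11, PEX5, PEX7, PEX19, INP1 and INP2, are named by rule, as are called genes of the lists; the other names, including members called without the filter alone, were chosen after their values were seen. Alternatives were the pseudocount, filter, scaling, library weights, strain averages, table layout, reference libraries, a replicate block and leaving out libraries.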

Additional observations from a re-analysis of the deposited data

Results flagged for a closer look

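In 84 groups of 4 libraries (a gene in fatty acid or dropout totals or IPs), Dixon's test at the 95% level found 4 with 1 library far from the other 3, where chance gives about 1 in 20. CIT2 was at 86.6 RPM in CPA1-GFP IP 1 against 67.7, 69.1 and 70.2 RPM in the other dropout IPs. The other 3 were all in FAS1-GFP FAS2dMPT total 2. CTA1 was at 2.82 RPM there against 1.84, 1.90 and 1.99 RPM in the other fatty acid totals. PEX6 was at 58.1 RPM against 30.3, 31.4 and 34.9 RPM. PXA2 was at 6.15 RPM against 3.21, 3.42 and 3.42 RPM. In the IP of the same replicate PEX6 was at 31.2 RPM, where the other fatty acid IPs had 49.0, 124 and 100 RPM.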

How the results depend on the processing

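Counts below are members called and then genes called. In FA totals minus YPD totals (main 4 and 329), the FAS1-GFP reference gave 2 and 74, a filter of 20 RPM 1 and 218, no further scaling 9 and 554, no filter 11 members and a pseudocount of 5 gave 2 members. In FAS1dMPT-GFP totals minus YPD totals (3 and 271), the members were 8 with equal totals, 1 with the FAS1-GFP reference, 5 in tables listing start before end, 1 with the filter of 20, 10 with no filter and 12 with no further scaling; the genes were 407 with library weights, 449 with equal totals, 26 with the FAS1-GFP reference, 66 with strain averages and 620 with no further scaling. In FAS1-GFP FAS2dMPT totals minus YPD totals (4 and 364), the members were 2 with the FAS1-GFP reference, 1 with the filter of 20 and 13 with no filter, and the genes 86 with that reference and 215 with strain averages. In FA totals minus dropout totals (2 and 193), the members were 4 with equal totals, 6 by layout, 1 with the filter of 20, 7 with no filter, 7 with no further scaling and 6 in a fit of those libraries alone, and the genes 323 with equal totals, 60 with strain averages, 746 by layout and 335 with no further scaling. Between the deletion strains (0 and 2), the genes were 59 with weights, 7 in a fit of those libraries alone, and 1 each with equal totals, strain averages, no further scaling, a pseudocount of 5 and the replicate block. In dropout totals minus YPD totals (0 and 0), weights gave 257 genes. In FA IPs minus YPD IPs (6 and 412), the filter of 20 gave 2 and 267, no further scaling 13 and 1031, and no filter 11 members. In IP minus total over full-length strains (1 and 248), equal totals gave 2 and 434, a pseudocount of 5 gave 0 and 128, no filter 2 members, the filter of 20 gave 148 genes and no further scaling 509. All 4 fatty acid totals came in tables listing start before end, as did 6 of the 17 YPD totals and 1 of the 4 dropout totals. The counts by layout against dropout totals therefore rest on TRP2-GFP total 1 as the only dropout library. No conclusion is drawn from those counts. The filter of 20 and no filter change which genes are tested. For the other settings the cause was not tested.

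Leaving out 1 library at a time gave 3 to 5 members and 300 to 351 genes in FA totals minus YPD totals, 2 to 4 and 46 to 312 for FAS1dMPT-GFP, 2 to 5 and 188 to 401 for FAS1-GFP FAS2dMPT, 2 to 3 and 102 to 356 against dropout totals, 0 to 0 and 1 to 2 between the strains, 0 to 0 and 0 to 11 for dropout totals, 5 to 6 and 362 to 535 in IPs, and 0 to 1 and 168 to 344 for IP minus total. FAS1dMPT-GFP gave 72 genes without its total 1 and 46 without its total 2; FAS1-GFP FAS2dMPT gave 2 members and 188 genes without its total 1. Against dropout totals the genes were 356 without CPA1-GFP, 311 without TRP3-GFP, 113 without FAS1dMPT-GFP total 2, and 103 and 102 without TRP2-GFP total 1 and total 2. Dropout totals minus YPD totals gave 11 without FAS1-GFP total 2, the strains gave 1 gene without FAS1-GFP FAS2dMPT total 1 or either FAS1dMPT-GFP total, and IP minus total gave 0 members without PFK1-GFP IP 1.

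Signs turned for INP1 in FA totals minus YPD totals (-0.052 without FAS1-GFP FAS2dMPT total 2 or its whole replicate 2 pair, -0.22 with the FAS1-GFP reference, -0.0087 without the 3 totals of lowest share over features, and -0.052 to 0.15 with 1 library left out) and for INP2 (0.052 with no further scaling, 0.011 with equal totals). They also turned for PEX11 in FAS1-GFP FAS2dMPT totals minus FAS1dMPT-GFP totals (0.086 without FAS1-GFP FAS2dMPT total 2 or its pair, 0.03 without FAS1dMPT-GFP total 2, and -0.20 to 0.086 with 1 library left out), and for CTA1, not called, in IPs (0.17 with no filter and without the IPs of MATalpha pattern).

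Replicate 1 minus replicate 2 was taken for each gene on the log2 scale, and these differences, not the library profiles, were correlated across genes. Between totals of different strains, 16 of 45 pairs of differences correlated above 0.1 (-0.392 to 0.640). Between the total and the IP of the same strain, 8 of 10 did (-0.0017 to 0.837, median 0.280). A fit with the replicate block, for IP minus total a block for each strain and replicate number, left the count of members called at 4, 3, 4, 2, 0, 0, 6 and 1 in the 8 comparisons above, in that order, and gave 332, 269, 367, 205, 1, 0, 396 and 251 genes.

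Depth limits the members near 0 in YPD: a read was worth up to 0.575 RPM there, and a pseudocount of 1 shrinks their log2 differences, so that POX1 ranged from 1.73 to 4.05 over the settings without the filter.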
